A study of Bos taurus with 94 samples.

Results

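The liver library of a cattle tissue atlas was set against the libraries of kidney cortex and kidney medulla, 3 of 94 libraries in all. The series measured RNA by sequencing across tissues of Hereford cattle, to help interpret genetic association signals in this species. Liver had 1 library and kidney had 2, 1 from each region, and all 3 carry the age label adult and no treatment or genotype beyond the breed. The labels do not say which animal any tissue came from. The difference between liver and kidney therefore has no replicate check and is described by its size. A fit that borrows its spread from other tissues is given as an alternative in the closing section. Levels are FPKM as the authors deposited them, which divide the fragments of a gene by its transcript length and by the size of the library. The description covers the genes that reached an FPKM of 10 in liver or in either kidney library, which were 7558 of 24616 genes (30.7%). The gene nearest that limit on the inside peaked at 10.0015 FPKM over the 3 libraries and the nearest outside at 9.9998 FPKM.

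Liver and kidney both clear the blood of small molecules and both make glucose from other fuels, but they are built differently. Hepatocytes fill most of the liver, secrete most plasma proteins, make bile acids and convert ammonia to urea. The kidney filters plasma in glomeruli, most of them in the cortex, and its tubules take back salts, sugars and amino acids. The medulla holds the loops and collecting ducts that concentrate urine. In the table the genes carry Ensembl identifiers only, and 0 of 24616 could be paired with a symbol. The 33 lists of metabolic, transport and cell type genes drawn up for these organs could not be applied. Neither tissue label could be checked against its defining markers, and the genes shared by both organs could not be sorted into metabolic pathways. Genes are described by their levels and by their place among the other tissues, and no identifier is given a role.

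The libraries differed in composition. An FPKM of 1 was reached by 11802 genes in liver, 12988 in kidney cortex and 12849 in kidney medulla. An FPKM of 10 was reached by 5043 genes in liver, 6753 in cortex and 6654 in medulla. The top 10 genes of each library took 17.5% of its FPKM in liver, 26.4% in cortex and 28.1% in medulla. Read depth is unknown. FPKM is a share, so genes that take much of a library lower the values of all others in it. Over the 4356 genes at an FPKM of 10 or more in all 3 libraries, the median log2(FPKM + 1) difference of liver was -0.62 from cortex and -0.65 from medulla. In bulk tissue, fewer cells of a type and less RNA per cell cannot be told apart. Across 18031 genes, liver was closest to kidney medulla (Spearman's rho 0.842) and kidney cortex (0.841) among all 93 other libraries, ahead of left lung (0.803) and duodenum (0.803). From the kidney side liver stood out less. After cortex, medulla was closest to KPH fat (0.843), then liver, then the contralateral intercaruncular endometrium (0.841). After medulla, cortex was closest to liver, then that endometrium (0.835). Genes are not independent replicates, so these correlations are descriptions.

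The kidney libraries were nearly alike, and their difference is the only spread that the kidney side offers. Of the 7558 genes, 94.9% lay within 0.5 of each other between cortex and medulla on the log2(FPKM + 1) scale. The SD of the difference over genes was 0.34, against 1.99 for liver minus cortex and 1.99 for liver minus medulla. A level at least 1 higher in cortex was seen for 41 genes (0.542%) and at least 1 lower for 6 genes (0.0794%). Only 17 genes (0.225%) lay at least 2 apart, while 1322 genes did between liver and cortex and 1319 between liver and medulla.

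**Figure D1:**
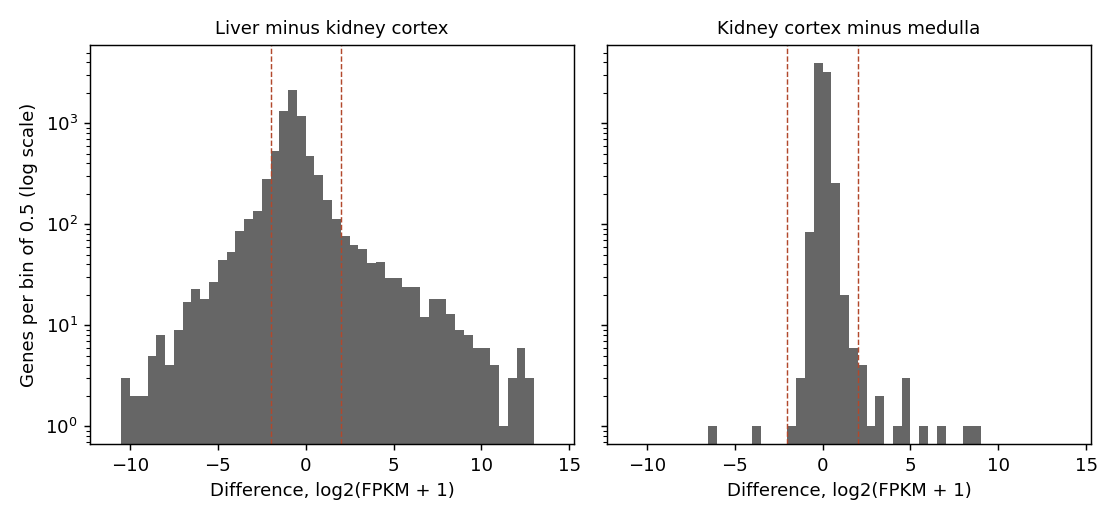
Differences on the log2(FPKM + 1) scale for 7558 genes, liver minus kidney cortex on the left and kidney cortex minus medulla on the right; bars count genes per bin of 0.5 on a log axis, and dashed lines mark differences of 2 either way. The left panel spreads widely with 1322 genes at least 2 apart, and the right panel is narrow with 17.

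Most of the 17 genes that separated the kidney regions were abundant in a gland outside the urinary system. In 15 of them cortex was higher, and 9 of the 15 had an FPKM of 1000 or more in the library labelled SalivaryGland, as did 69 of all 7558 genes (0.913%). Of the 10 most abundant genes of that salivary gland library, 8 were listed at 0 in medulla, and 7 of these were listed at 0 in liver too. In cortex the 8 genes ranged from 20.4 to 474.6 FPKM, which was 0.262% to 0.303% of their salivary gland levels. ENSBTAG00000024683 was listed at 0 in liver, was at 474.6 FPKM in cortex and listed at 0 in medulla, and reached 159397 FPKM in the salivary gland. ENSBTAG00000009144 was listed at 0 in liver, was at 302.3 FPKM in cortex and listed at 0 in medulla, and reached 99877 FPKM in the salivary gland. The pattern was not particular to cortex: the caruncular endometrium carried the same 8 genes at 24.7 to 624.4 FPKM, or 0.28% to 0.392% of their salivary gland levels, and each was at 1 FPKM or more in 6 to 31 of the other libraries. The source of that signal was not tested. Together the 8 genes made up 0.149% of the FPKM in cortex. In the other 2 genes medulla was higher. ENSBTAG00000016138, the one further apart, was listed at 0 in liver and in cortex, was at 66.9 FPKM in medulla, and reached 29686 FPKM in the pituitary stalk. These identifiers were chosen after their values were seen. None of the 17 genes was liver-led or kidney-led by the definition used below, which requires both kidney libraries to lie on the same side of liver.

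The main question was which genes each organ carries at a much higher level than the other. A gene was called liver-led where liver lay at least 2 above each kidney library on the log2(FPKM + 1) scale, a 4-fold difference for abundant genes, and kidney-led where liver lay at least 2 below each. Of the 7558 genes, 477 were liver-led (6.31%) and 734 were kidney-led (9.71%). A further 2674 genes (35.4%) were shared, with an FPKM of 10 or more in all 3 libraries and under 1 between liver and each kidney library. The remaining 3673 genes lay between these classes. Liver was at least 2 above just 1 kidney library for 41 genes and at least 2 below just 1 for 178. No gene lay at least 1 above liver in one kidney region and at least 1 below it in the other. The smallest difference that made a gene liver-led was 2.01 and the largest that missed was 1.99. For kidney-led genes these limits were -2.003 inside and -1.9989 outside.

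**Figure D2:**
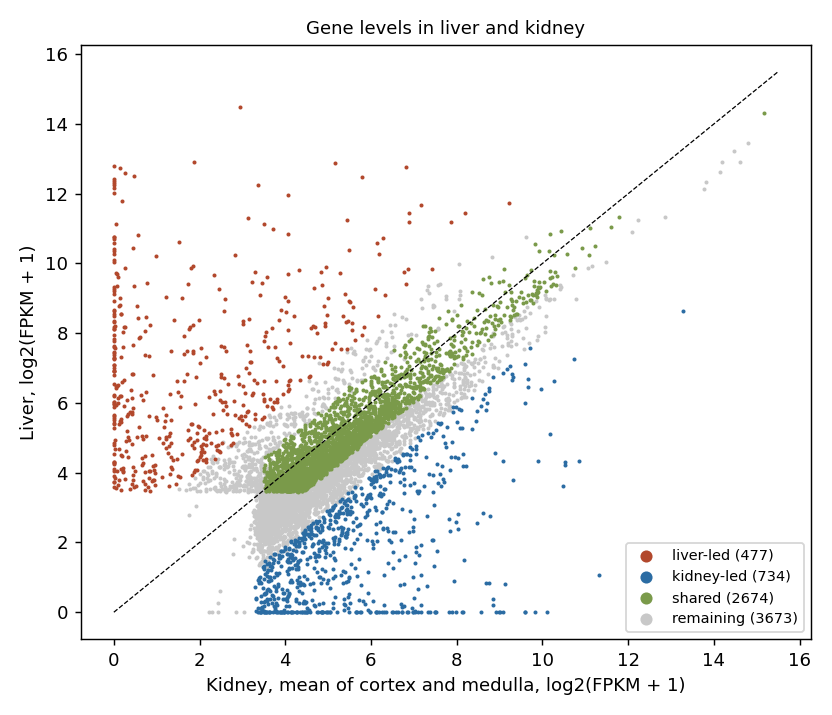
Level of each of 7558 genes in liver against the mean of kidney cortex and medulla, both as log2(FPKM + 1); each point is a gene, coloured as liver-led (477), kidney-led (734), shared (2674) or remaining (3673), and the dashed line marks equal levels. The band of shared genes lies mostly below the line, and liver-led genes reach from the left edge, where kidney is listed at 0, to the middle of the plot.

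Which organ led more genes depended on how the libraries were scaled. With FPKM as deposited, liver-led genes made up 39.4% of all led genes. Rescaling each library to equal totals gave 521 liver-led and 625 kidney-led genes, or 45.5% liver-led. Quantile normalization gave 625 and 487, or 56.2% liver-led. Scaling by the median ratio over 4558 genes detected in all 94 libraries, an alternative added after the data were seen, gave 746 and 449, or 62.4% liver-led. The median difference between liver and the kidney mean over the 7558 genes was -0.75 as deposited, -0.57 with equal totals, -0.20 with quantile normalization and -0.01 with median-ratio scaling. Each of these scalings raised this median, so the direction of any losses follows from the scalings: 477 of 477 liver-led and 441 of 734 kidney-led genes (60.1%) held under all 3. No order between the organs can be read from the counts alone.

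**Figure D3:**
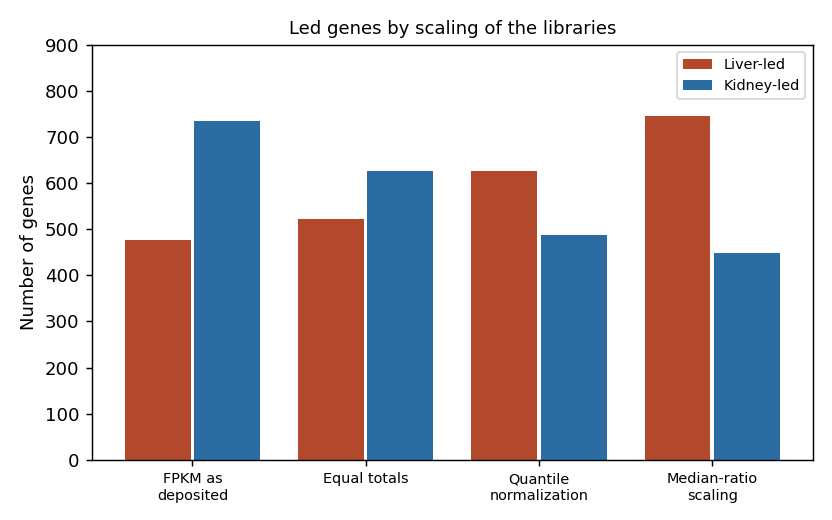
Number of liver-led and kidney-led genes under 4 scalings of the libraries; bars start at 0. The taller bar changes from kidney-led (734 against 477 liver-led) with FPKM as deposited to liver-led (746 against 449 kidney-led) with median-ratio scaling.

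Liver-led genes took a larger share of the FPKM of their organ than kidney-led genes did of theirs. They held 39.6% of the FPKM in the liver library, against 0.809% in kidney cortex and 0.707% in kidney medulla. Kidney-led genes held 1.06% of the FPKM in liver, against 12.9% in cortex and 11.9% in medulla. In liver, 48 of the 477 liver-led genes (10.1%) reached 1000 FPKM and another 176 lay between 100 and 1000 FPKM. Averaged over the kidney libraries, 11 of the 734 kidney-led genes (1.5%) reached 1000 FPKM and another 171 lay between 100 and 1000 FPKM. The median liver-led gene was at 91.1 FPKM in liver, against 1.96 in cortex and 1.84 in medulla. The median kidney-led gene was at 2.50 FPKM in liver, against 39.3 in cortex and 37.7 in medulla. These levels chose the genes and are descriptions.

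The gap was also deeper on the liver side. Of the 477 liver-led genes, 248 lay at least 4 above the nearer kidney library and 56 at least 8 above. Of the 734 kidney-led genes, 183 lay at least 4 below the nearer kidney library in liver and 15 at least 8 below. The median difference from the nearer kidney library was 4.17 for liver-led genes and -3.00 for kidney-led genes. Many of the genes were at low values in the other organ. In kidney, 195 liver-led genes were under 1 FPKM in both kidney libraries, 74 of them listed at 0 in both. In liver, 252 kidney-led genes were under 1 FPKM and 104 were listed at 0. Led genes were chosen for a lower level in the other organ, and no matching counts over all genes are given. These low-value counts are therefore descriptions and say nothing particular of led genes. A value of 0 in such a table can be a failed estimate, so no fold is given for a gene listed at 0.

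The liver-led genes with the widest gap were low in nearly all other tissues. ENSBTAG00000017294 was at 7157 FPKM in liver and was listed at 0 in cortex and in medulla. Among the 91 libraries outside both organs it was listed at 0 in 60, and its highest level was 3.15 FPKM in a follicle library. ENSBTAG00000001638 was at 6880 FPKM in liver, against 0.114 in cortex and 0.0896 in medulla, a log2(FPKM + 1) difference of 12.59 from cortex and 12.62 from medulla. Its kidney levels are below the pseudocount of 1, and with a pseudocount of 0.1 the difference from the kidney mean was 15.06, against 12.61 with 1. Its median outside both organs was 0, and 1 library passed 10 FPKM, the bladder with 39.1. The most abundant liver-led gene reached 23019 FPKM in liver, 3.69% of that library, against 6.83 in cortex and 6.52 in medulla. The third most abundant was also abundant in the gut: it was at 7490 FPKM in liver, against 38.1 in cortex and 32.1 in medulla, and at 1289 in the duodenum.

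The kidney-led genes with the widest gap were also found in other tissues. ENSBTAG00000008945 was listed at 0 in liver and was at 1126 FPKM in cortex and 1092 in medulla. Outside both organs it had a median of 0.195 FPKM and was highest in 3 brain libraries, with 252.9 in the pons, 97.7 in the midbrain and 83.0 in the temporal cortex. It was at 1 FPKM or more in 27 of the 91 other libraries and at 10 or more in 13. ENSBTAG00000009828 was at 1.09 FPKM in liver, against 2257 in cortex and 2875 in medulla, a log2(FPKM + 1) difference of -10.08 from cortex and -10.43 from medulla. Its highest levels elsewhere were 208.2 FPKM in the salivary gland and 134.4 in the nasal mucosa. It was at 1 FPKM or more in 30 of the 91 other libraries and at 10 or more in 10. The most abundant kidney-led gene was less exclusive, at 398.2 FPKM in liver, against 10447 in cortex and 9397 in medulla. It also reached 2078 FPKM in the anterior pituitary. The third most abundant was at 19.1 FPKM in liver, against 1792 in cortex and 1938 in medulla, and did not pass 21.6 FPKM in any of the 91 other libraries.

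The led genes were then placed against the median of the other 91 libraries. Since the genes were chosen for their levels in liver and kidney, high shares in the leading organ follow in part from that choice and are descriptions. Of the 477 liver-led genes, 439 (92.0%) lay at least 2 above the median of the other 91 libraries in liver, beside 11.4% of all 7558 genes. At least 2 below that median in both kidney libraries were 6 liver-led genes (1.26%), beside 17 of all 7558 genes (0.225%). Of the 734 kidney-led genes, 411 (56.0%) lay at least 2 above the median of the others in both kidney libraries, beside 11.6% of all 7558 genes. At least 2 below that median in liver were 126 kidney-led genes (17.2%), beside 3.29% of all 7558 genes. Of the kidney-led genes, 17 were both high in kidney and low in liver, and 214 were neither. The kidney-led class thus held genes high in kidney and genes low in liver. In the genes low in liver the median level was 2.32 FPKM in liver, against 32.6 in cortex and 36.7 in medulla, and the median of the other libraries was 20.3. Their number depended on the scaling, with 103 after equal totals, 71 after quantile normalization and 56 after median-ratio scaling. It was 247 with a pseudocount of 0.1.

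**Figure D4:**
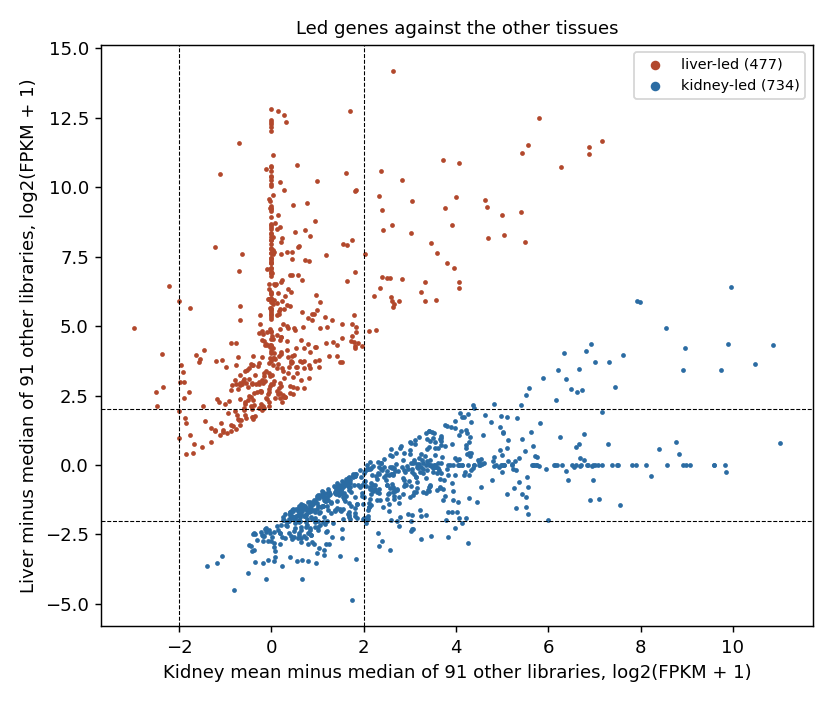
Place of the led genes against the other tissues, as the mean of both kidney libraries (x axis) and liver (y axis), each minus the median of 91 other libraries on the log2(FPKM + 1) scale; points are genes, red for 477 liver-led and blue for 734 kidney-led, and dashed lines mark 2 above and below. Most liver-led genes lie above the upper line in liver (439 of 477). Kidney-led genes include a wing at high kidney values and a cluster at low liver values. By the limits in the text, 214 of the 734 were neither high in kidney nor low in liver.

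The led genes were next placed by whether any other library matched their level, where both kidney libraries had to stand above the rest. The genes were picked for high levels in these same libraries, so the shares are descriptions. In 265 of the 477 liver-led genes (55.6%) liver was the highest of all 94 libraries, and in 153 (32.1%) it lay at least 2 above each of the other 93, beside 5.17% and 2.02% of all 7558 genes. In 182 of the 734 kidney-led genes (24.8%) both kidney libraries were above each of the other 92, and in 72 (9.81%) both lay at least 2 above, beside 4.66% and 0.953% of all 7558 genes. An FPKM under 1 in every library outside the organ was found for 32 liver-led and 7 kidney-led genes, which are 0.423% and 0.0926% of all 7558 genes. At the other end, 39 liver-led genes (8.18%) and 157 kidney-led genes (21.4%) reached an FPKM of 1 in all 94 libraries. The same held for 54.6% of all 7558 genes. Whether these shares differ between the sets beyond the spread between animals could not be tested with 1 liver library.

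The led sets were also followed through the tissues outside both organs. Liver-led genes averaged 6.88 on the log2(FPKM + 1) scale in liver, against 1.98 in cortex and 1.93 in medulla, and from 0.78 to 2.70 in the 91 other libraries. The highest averages among these were left lung (2.70), jejunum (2.54), bladder (2.52) and duodenum (2.45). The share of liver-led genes at least 2 above the median of the others was 21.2% in left lung, 19.3% in duodenum (92 genes) and 19.1% in jejunum (91 genes). A typical other library had 8.39% of them so high. Over all 7558 genes these shares were 6.93% in left lung, 4.79% in duodenum and 4.75% in jejunum. Kidney-led genes high in kidney averaged 1.66 in liver, against 5.97 in cortex and 5.86 in medulla. They were next highest in the contralateral intercaruncular endometrium (2.75), where 92 of 411 (22.4%) lay at least 2 above the median, beside 5.12% of all 7558 genes. A typical other library had 10.9% of them so high. The ipsilateral intercaruncular endometrium had 86 (20.9%, beside 4.91% of all 7558 genes), the caruncular endometrium 83 (20.2%, beside 4.87%) and the head of the epididymis 83 (20.2%, beside 5.15%). Bladder was high for both sets, with 17.6% of liver-led genes and 18% of kidney-led genes high in kidney, beside 4.02% of all 7558 genes. It was not alone in this. For the same sets, in that order, ileum had 16.6% and 18.2%, beside 5.16% of all 7558 genes. Abomasum had 18% and 15.3%, beside 5.42%. Duodenum had 16.1% and left lung 14.4% of the kidney-led genes high in kidney so high. Whether the sets differ in the tissues they reach was not tested.

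Kidney-led genes low in liver formed a broader set. They averaged 1.98 on the log2(FPKM + 1) scale in liver, against 5.38 in cortex and 5.49 in medulla. The 91 other libraries ran from 2.57 in white blood cells to 5.60 in the anterior eye, so that every one of them was above liver. The kidney libraries lay within the range of the others. The low level in liver was part of the choice of these genes. Brain libraries had the most of these genes at least 2 above the median, with 29 of 126 in the pons (23.0%) and 27 in the cerebral cortex (21.4%), beside 5.15% and 4.60% of all 7558 genes.

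**Figure D5:**
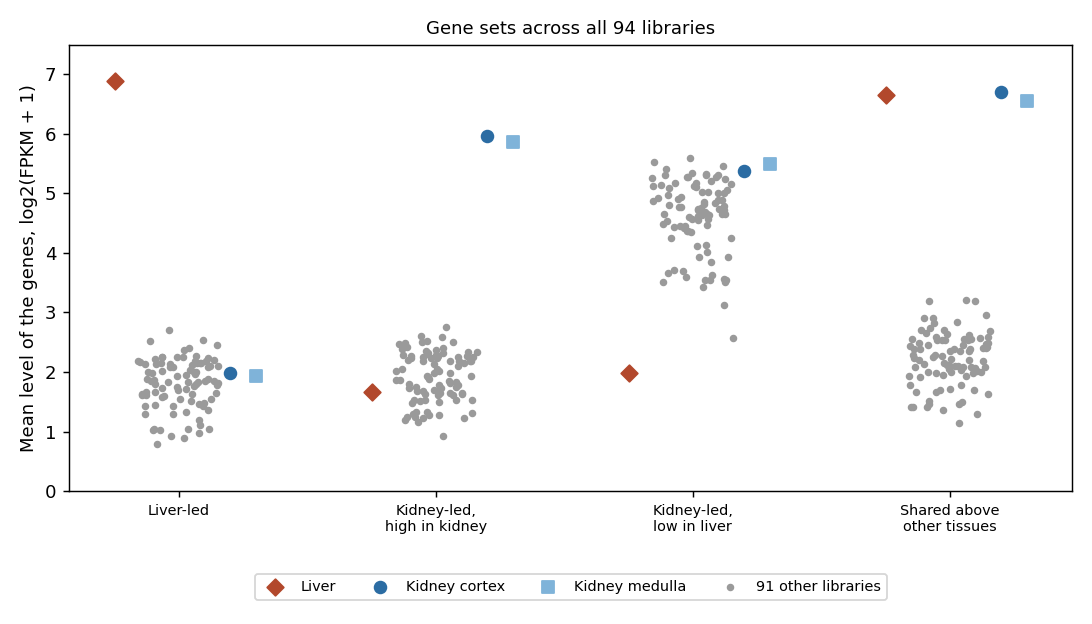
Mean level of 4 gene sets, as log2(FPKM + 1), in liver (red diamond), kidney cortex (blue circle), kidney medulla (light blue square) and 91 other libraries (grey points, spread sideways at random). Liver (6.88) stands clear of all others for liver-led genes, all 3 libraries (6.66, 6.70 and 6.55) stand clear for the genes shared above other tissues, and liver (1.98) lies below every other library for the kidney-led genes low in liver.

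Genes at like levels in both organs were mostly found in every tissue, as were other genes of such abundance. Of the 2674 shared genes, 1929 (72.1%) reached an FPKM of 1 in all 94 libraries, near the 71.6% of the 4356 genes at an FPKM of 10 or more in all 3 libraries. At least 2 above the median of the other libraries in all 3 libraries were 155 of them (5.8%). Of the 4356 genes, 313 were so high, a larger share than among the shared genes. These 313 are 4.14% of all 7558 genes. The shared genes held 30% of the FPKM in liver, against 34.0% in cortex and 34.0% in medulla. The most abundant gene of both kidney libraries was among them, at 20488 FPKM in liver, against 35620 in cortex and 37994 in medulla. Its median over the other 91 libraries was 18279 FPKM.

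A set of 313 genes (4.14%) was higher in liver and in both kidney libraries than in the median other tissue. Each lay at least 2 above the median of the other 91 libraries in all 3 libraries, at an FPKM of 10 or more. That median was under 10 FPKM for 243 of the 313 and reached 490.1 FPKM for the gene highest elsewhere. Without gene names, what these genes do in both organs could not be given. Liver was above both kidney libraries for 125 of the 313 and below both for 163, and the median difference between liver and the kidney mean was -0.18. Of the 313, 29 were also liver-led and 22 kidney-led, beside 6.31% and 9.71% of all 7558 genes. These overlaps are descriptions. They held 14.2% of the FPKM in liver, against 10.9% in cortex and 9.74% in medulla. The median member was at 92.1 FPKM in liver, against 90.9 in cortex and 84.7 in medulla. The same genes had a median of 1.88 FPKM over the medians of the other libraries.

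The genes that stood furthest above other tissues in both organs were abundant in all 3 libraries. ENSBTAG00000001936 was at 929.7 FPKM in liver, against 1809 in cortex and 1668 in medulla. Its median in the other 91 libraries was 0.715 FPKM, and its highest level there was 157.4 in the ascending colon. ENSBTAG00000020597 was at 502.4 FPKM in liver, against 1196 in cortex and 969.4 in medulla. Its median elsewhere was 0.0714 FPKM and its highest level there was 83.2 in the salivary gland. In both genes liver was the lowest of the 3 libraries, and the difference from the kidney mean was -0.90 and -1.10 on the log2(FPKM + 1) scale. With median-ratio scaling these differences were -0.11 and -0.31, and with quantile normalization they were -1.38 and -1.80. Both identifiers were chosen after their values were seen.

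In 142 of the 313 genes (45.4%) all 3 libraries were above each of the other 91, and in 59 (18.8%) all 3 lay at least 2 above, beside 2.33% and 0.807% of all 7558 genes. These genes were chosen for standing above other tissues. An FPKM under 1 in all 91 others was seen for 11 genes (3.51%), beside 54 of all 7558 genes (0.714%). The upper small intestine came next. In the duodenum 83 of the 313 (26.5%) and in the jejunum 79 (25.2%) lay at least 2 above the median of the other libraries. A typical other library had 8.95% of them so high, and 4.79% of all 7558 genes were so high in the duodenum. The bladder had 69 of them so high, where 4.02% of all 7558 genes were. The abomasum, the glandular stomach of ruminants, had 65 (20.8%), beside 5.42% of all 7558 genes. The set averaged 3.21 on the log2(FPKM + 1) scale in the duodenum and 3.20 in the jejunum, against 1.15 in the lowest library. Among the 91 other libraries, the closest profile was looked up for 9, picked from earlier results. In each it was a tissue of another kind than the label. Without these 9 in the median the set held 304 genes. The rest of the 91 were not checked in this way, so more such libraries may remain in that median.

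Within the kidney, 658 of the 734 kidney-led genes (89.6%) lay within 0.5 of each other between cortex and medulla, a lower share than the 94.9% of all 7558 genes. Differences on the log2(FPKM + 1) scale ran from -0.74 to 1.24. Cortex was at least 1 higher for 4 genes (0.545%), beside 0.542% of all 7558 genes, so the count says nothing particular of kidney-led genes. Medulla was at least 1 higher for 0 of them. ENSBTAG00000004555 differed most: it was listed at 0 in liver and was at 106.2 FPKM in cortex and 44.3 in medulla. ENSBTAG00000013984 was at 0.187 FPKM in liver, against 58.9 in cortex and 27.2 in medulla. The gene furthest toward the medulla, ENSBTAG00000047231, was at 1.41 FPKM in liver, against 12.8 in cortex and 22.2 in medulla. These identifiers too were chosen after their values were seen. Equal totals gave 11 genes at least 1 higher in cortex, and a pseudocount of 0.1 gave 9.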

How the data were processed

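RNA sequencing of 94 bovine libraries gave 1 table of 24616 Ensembl genes. The deposited values are FPKM, per the file headers and name. HISAT2, StringTie and the genome build UMD3.1 are named in the submitters' processing notes, without versions, and the annotation release was not stated there. Of 298 low genes compared between the kidney libraries, 3.36% shared the commonest ratio (to 0.01 in natural log), so reads could not be recovered and no intervals are given.

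Values were analysed as log2(FPKM + 1), which understates folds of low genes. The main comparison of 1 liver with 2 kidney libraries used a limit on size and no test. Leading genes were to be named as the 2 with the largest nearer difference each way, by identifier, because the gene table used (ARS-UCD2.0) matched 0 identifiers. The organs, the sets and the lists were chosen with earlier results of these data known. An alternative fit with limma 3.58.1 in R 4.3.3 covered all 35 tissue groups. Its spread came from the 19 groups with 2 or more libraries. The fit was also run on simulated data. There liver was given the same spread as the other groups, so the simulation cannot check whether 1 liver library varies like them. Other steps used Python 3.11.15, numpy 2.4.6, pandas 2.3.3 and scipy 1.17.1. Replicate libraries here are different regions or tissues, whose spread may not be that between animals. Alternatives were the pseudocount, the FPKM limit, 3 scalings, the size of difference and each kidney library left out.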

Additional observations from a re-analysis of the deposited data

How the results depend on the processing

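No paired analysis was possible because the labels number no replicates and liver has 1 library. Leaving out each kidney library in turn gave 491 to 502 liver-led, 791 to 805 kidney-led and 2814 to 3005 shared genes. It gave 320 to 332 genes shared above other tissues, 409 to 465 kidney-led genes high in kidney and 128 to 136 low in liver. The liver library could not be left out. With a difference of at least 1, 741 genes were liver-led and 2452 kidney-led, and with at least 3, 345 were liver-led and 366 kidney-led. With FPKM as deposited, kidney-led genes were thus more numerous at each limit, by a narrow margin at 3. An FPKM limit of 30 left 444 kidney-led and 952 shared genes, and a limit of 1 in all 3 libraries gave 6763 shared genes. Quantile normalization gave 487 kidney-led genes, 71 of them low in liver. Median-ratio scaling gave 746 liver-led, 449 kidney-led and 4176 shared genes, and 56 kidney-led genes low in liver. A pseudocount of 0.1 gave 247 genes low in liver and 9 kidney-led genes higher in cortex, and equal totals gave 11 higher in cortex. The limma fit, which assumes that the lone liver library varies like the libraries of other groups, called 261 genes higher and 377 lower in liver at an adjusted p under 0.05 and a difference of at least 2, with 257 of the 477 liver-led and 359 of the 734 kidney-led genes among them. The causes of these moves were not tested. The number of genes shared above other tissues stayed within 1.5 times 313 under every alternative run, from 212 to 383. For the 6 genes leading the liver-led, kidney-led and shared sets, 36 log2 differences were recalculated. Of these, 19 moved by more than the SD of that gene's own cortex and medulla values, and 0 changed sign. The size of 4 of the 6 differences leaves little room for a change of sign. Leaving out a kidney library cannot move a difference past that SD. For ENSBTAG00000017294, listed at 0 in both kidney libraries, the SD is 0 and any shift counts. The count of 19 is therefore no measure of stability. List medians were not run because no list could be matched.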

Other observations

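Some led genes were higher in a tissue outside both organs. Of the liver-led genes, 136 had another library at least 1 higher than liver on the log2(FPKM + 1) scale, and 11 had one at least 4 higher. Of the kidney-led genes, 383 had another library at least 1 higher than both kidney libraries, and 52 had one at least 4 higher. The matching shares of all 7558 genes were not computed, so these counts say nothing particular of led genes. Among the 91 other libraries, left lung held the highest level for 27 liver-led genes (5.66%, beside 1.88% of all 7558 genes), duodenum for 25 (5.24%, beside 0.886%) and diaphragm for 20 (4.19%, beside 2.41%). For kidney-led genes it was the bull testis for 45 (6.13%, beside 9.71% of all 7558 genes), follicle replicate 1 for 33 (4.5%, beside 4.04%) and the ipsilateral infundibulum of the oviduct for 28 (3.81%, beside 3.16%), so these shares lay near or below those of all genes. The closest profile of the library labelled diaphragm was the gall bladder (Spearman's rho 0.994 over 18031 genes), and that of follicle replicate 1 was the body of the epididymis (0.909).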
